A study of Mus musculus with 5 samples.

Results

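Hybrid cells that had been differentiated for 14 days, EHeD14, were compared with embryonic stem (ES) cells, the pluripotent parent of the hybrid. The comparison was chosen by the sample labels and used 2 of the 5 arrays of the series, 1 for EHeD14 and 1 for ES. The other arrays hold the undifferentiated hybrid (EHe), the hybrid after 7 days of differentiation (EHeD7) and Hepa1-6, and their values stand beside the comparison where they place a gene. The question was the net change from the ES parent: which stem-cell genes were lost and which genes of embryonic lineages were gained.

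The ES cells were of the mouse line E14, and Hepa1-6 is a mouse hepatoma line, the tumor parent of the hybrid. In the study the ES cells carried a red fluorescent protein and resistance to hygromycin, Hepa1-6 carried a green fluorescent protein and resistance to neomycin, and fused cells were picked as colonies that grew under both drugs. The sources used here do not say how many colonies the RNA came from. ES and EHe were kept in Glasgow minimum essential medium with serum replacement, a little serum and leukemia inhibitory factor (LIF), the cytokine that holds mouse ES cells undifferentiated. By the labels, the hybrids were differentiated as a monolayer on gelatin in high-glucose Dulbecco's medium with fetal calf serum. The study's methods describe embryoid bodies in a different medium, without naming the array samples, and they give Cy5 where the labels give Cy3 as the dye. EHeD14 thus differed from ES in fusion, in time of differentiation and in medium, and no array held ES cells differentiated without fusion, so the parts of these factors cannot be told apart from this pair.

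Each condition had 1 array, so there was no replicate error and no p-value, and the number of arrays limits the precision. The ES and EHeD14 arrays lay on the same slide, as did EHe and EHeD7, while Hepa1-6 lay on another. Each array was read in 1 colour, and the signal of every spot was scaled so that the 75th percentile of its array equals 1000 units. The scanner software called 62.1% of the 41174 gene probes well above background in ES and 63.6% in EHeD14. The lowest signal so called was 23.4 units in ES and 21.3 in EHeD14. Noise between spots could be measured on few probes, as 40929 of the 41174 were printed once. Among the 154 probes printed 10 times and measured on both arrays, the log2 difference between EHeD14 and ES had a median SD of 0.11 from spot to spot, and none of 1458 spot differences deviated over 3-fold from the mean of its probe. The median error of the log2 difference given by the scanner software was 0.20 for probes measured on both arrays, and it was larger near background, as with 1.45 for Cer1 and 1.46 for Wnt3a. These values measure the array and say nothing about variation between cultures.

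Mouse ES cells held with LIF resemble the naive epiblast of the blastocyst, which depends on transcription factors such as Esrrb, Klf4 and Tfcp2l1 beside the core factors Pou5f1 (Oct4) and Sox2. After implantation the epiblast becomes primed: the naive factors are shut off while Pou5f1 persists, and genes such as Fgf5, Otx2 and Pou3f1 come on. Gastrulation follows, when Wnt3, Nodal and the T-box factors T and Eomes mark the primitive streak, from which mesoderm and endoderm arise, and the remaining epiblast gives neural and surface ectoderm.

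In EHeD14, each of the 17 naive pluripotency genes with a named probe was over 3-fold lower than in ES, whereas 10 of the 14 core pluripotency genes lay within 3-fold of ES. Of the primed epiblast genes 5 of 11 were higher and of the primitive streak genes 6 of 16, with Fgf5 187-fold higher, T 70.0-fold and Wnt3 at least 127-fold. Of all genes measured, 9.4% were higher and 8.24% lower. Higher too were 6 of 12 genes of smooth muscle and the contractile cytoskeleton and 10 of 21 matrix genes. So were 7 of 23 neural genes and 4 of 15 trophoblast genes. These 4 were Gata3 and the keratins Krt7, Krt8 and Krt18, while Cdx2 was inside 3-fold and Tfap2c fell. In the matrix, neural and trophoblast lists 2, 4 and 1 genes were lower. Of 14 foregut genes 2 were higher and 0 lower. Of 14 genes of heart and skeletal muscle 1 was higher and 4 lower, and of 15 of blood and endothelium 1 and 2. The shares of all genes count only genes well above background on either array, while the list counts include dim members. Without dim members, 2 of 9 foregut, 1 of 11 muscle and 1 of 8 blood genes were higher, and 0, 4 and 2 lower. Likewise 6 of 14 streak, 10 of 19 matrix, 7 of 17 neural and 4 of 12 trophoblast genes were higher. With dim members counted, at least as many members of each list named here did not pass 3-fold upward as did, primed and streak included.

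Of 27671 probes well above background on either array, 2604 (9.41%) were over 3-fold higher in EHeD14 and 2167 (7.83%) over 3-fold lower. Taking 1 probe for each named gene, 14685 genes were measured, of which 1381 (9.4%) were higher and 1210 (8.24%) lower. Over 10-fold changes were seen in 326 genes upward and 302 downward. The EHeD14 array alone measured 752 genes well above background and the ES array alone 633, and the remaining 13300 were measured on both. Of the higher genes, 55.8% were also measured in Hepa1-6, and of the lower genes 50.6%, against 78.8% of all genes measured. Where a gene was not well above background on 1 of the arrays, its fold is a lower bound, taken as the bright signal over the dim array's lowest accepted signal or over the gene's own dim signal if that was higher. Such folds are written as "at least". With dim signals raised in this way, 1171 genes were higher and 1056 lower. Of the 159 genes named in the text that passed 3-fold, 150 still did so with dim signals raised, and 125 after normexp background correction with an offset, which started from the median signal in place of the processed signal. The median log2 difference of all named genes was -0.21, so that a gene at 0 stood slightly above the middle of the array, and quantile normalization moved this median to -0.05. List medians below are to be read against the median of -0.21. List counts below are to be read against the 9.4% of measured genes higher and 8.24% lower, though they include members dim on both arrays.

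**Figure D1:**
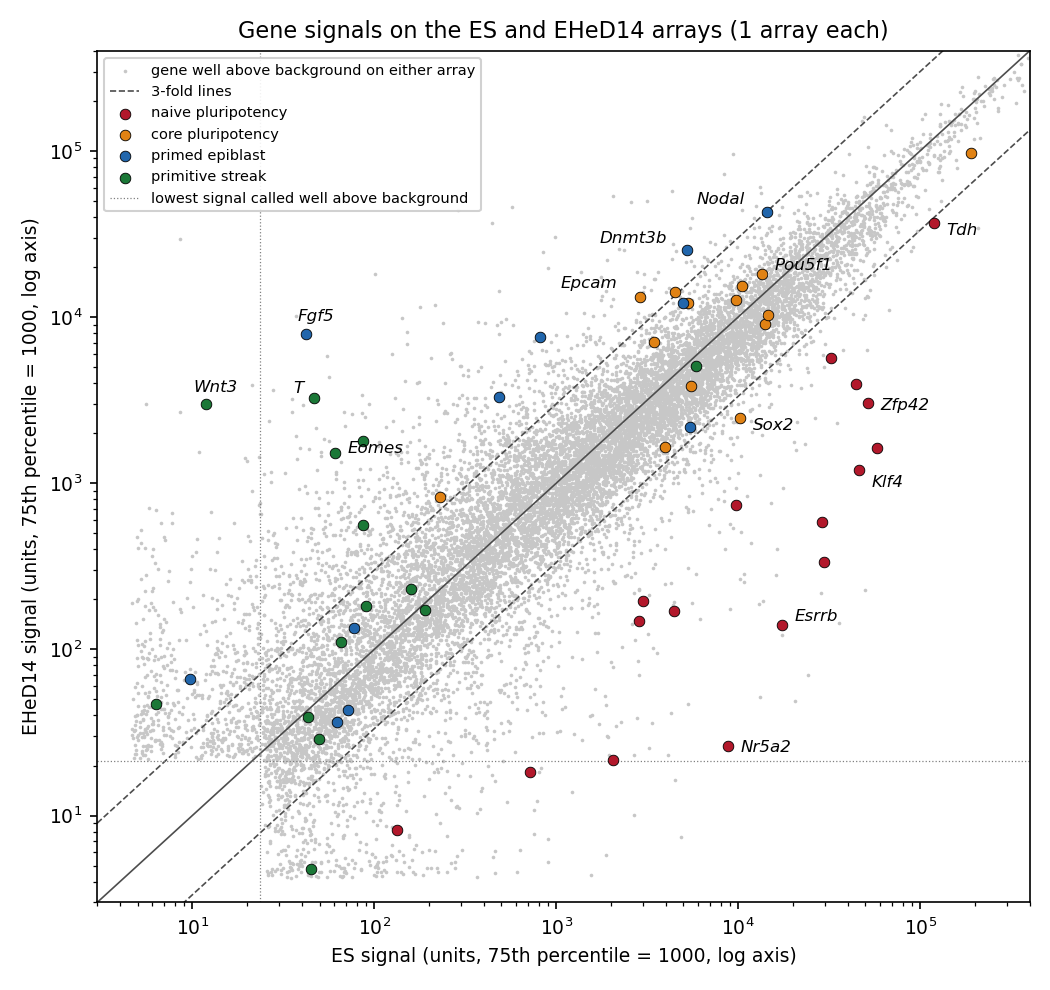
Signal of each gene on the ES array (horizontal, log axis) and the EHeD14 array (vertical, log axis), in units with the 75th percentile of an array at 1000; dashed lines mark 3-fold and dotted lines the lowest signal called well above background. All 17 naive genes lie below the lower 3-fold line, from Tdh, 3.22-fold lower, to Nr5a2, at least 334-fold lower, while Fgf5, T and Wnt3 lie far above the upper one.

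The naive list had a median log2 difference of -4.71, with or without dim signals raised. Zfp42 (Rex1), a classic marker of naive ES cells, gave 51770 units in ES, 51470 in EHe, 6155 in EHeD7 and 3025 in EHeD14, 17.1-fold below ES. Esrrb, an orphan nuclear receptor of the naive network, gave 17450 in ES, 16230 in EHe, 1291 in EHeD7 and 139.7 in EHeD14, a 125-fold fall from ES. The EHe array thus lay near ES for both genes, and the fall was on the differentiated arrays. In bulk RNA, fewer cells that express a gene and less RNA in each cell cannot be told apart. Klf4, a target of LIF signaling, was 45970 units in ES and 1193 in EHeD14, 38.5-fold lower. Klf2 was 35.2-fold lower on its brightest probe, and its second probe differed by -1.04 on the log2 scale, inside 3-fold. Klf5 was 5.66-fold lower.

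Tbx3, a T-box factor downstream of LIF, gave 29470 units in ES, 9175 in EHe and 335.8 in EHeD14, 87.8-fold below ES, so that part of the distance was already present in EHe. Tfcp2l1 was 26.2-fold lower, Nr0b1 13.1-fold and Dppa3 (Stella) 19.2-fold. Nr0b1 stood higher in EHe, at 28270 units, than in ES, at 9708. Dppa3 was already lower in EHe, with 2866 units in ES, 470.3 in EHe and 149 in EHeD14. Fbxo15, a target of Oct4 and Sox2 whose locus has served as a reporter of pluripotency, was 49.9-fold lower. Socs3, the feedback inhibitor of LIF signaling, was 11.3-fold lower in the medium that the labels give without LIF. Tdh, the threonine dehydrogenase on which mouse ES cells depend, had the smallest fall of the list, from 119000 to 36940 units, with EHe at 38980 already, and came inside 3-fold after quantile normalization.

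For 4 naive genes the EHeD14 signal was not well above background. Nr5a2, a nuclear receptor that can take the place of Oct4 in reprogramming, fell from 8768 units by at least 334-fold. Gbx2, a homeobox target of LIF signaling, fell at least 94.2-fold and Pecam1, an adhesion molecule of naive colonies, at least 33.8-fold. Tet2, which oxidizes 5-methylcytosine, started from 132.8 units and fell at least 6.24-fold.

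The core list behaved otherwise. Pou5f1 gave 13460 units in ES, 16520 in EHe, 21190 in EHeD7 and 18080 in EHeD14, and it was not well above background in Hepa1-6. Its log2 difference of 0.43 between EHeD14 and ES is inside 3-fold. Sox2, the partner of Oct4 on DNA, was the 1 core gene that fell, from 10290 units to 2475, or 4.16-fold, while EHe stood at 11120. Sall4, Tdgf1 (Cripto), Utf1, Dppa2 and Dppa4 lay within 3-fold, as did Lin28a, at 3462 units in ES and 7029 in EHeD14. Dppa5a, an RNA-binding protein of pluripotent cells, went from 190500 units to 96400, a log2 difference of -0.98. Gdf3 was 2.40-fold lower, also inside the threshold. The 3 core genes that rose were Foxd3, a forkhead factor needed in the epiblast, 3.58-fold but inside 3-fold with normexp, and the epithelial adhesion genes Epcam, 4.58-fold, and Cdh1 (E-cadherin), 3.12-fold. The list's median was 0.40 against -0.21 for all genes. Nanog had no named probe and was not analysed here.

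Among genes active in the rare cells of ES cultures that resemble the 2-cell embryo, 4 of 5 with a named probe were lower, 3 of them also with dim signals raised. Zscan4c, which marks that state, fell from 1216 units by at least 57.1-fold. Usp17la fell 31.6-fold and Tcstv1 19.9-fold. These genes belong to families of closely similar copies, so a probe may read more than 1 member. Genes of the germline and meiosis were lower in 10 of 15 and higher in 1, where 8.24% of all genes measured were lower. Stra8, the gatekeeper of meiosis, gave 35700 units in ES, 17120 in EHe and 143.8 in EHeD14, 248-fold below ES. Dazl, an RNA-binding protein of germ cells, fell 62.9-fold, and Rec114, which acts in the breaks that start meiotic recombination, 103-fold. Mael, of the piRNA pathway, fell 4.29-fold and the homeobox gene Rhox5 8.07-fold. Ddx4 (Vasa) lay at 1016 units in ES and 1098 in EHeD14. Tdrd1 was the exception, 3.86-fold higher on its brightest probe and within 3-fold on the other. The median of the germline list was -2.21 and that of the 2-cell list -4.31, which became -2.85 with normexp and -3.21 with the mean of a gene's probes.

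Of the 11 primed epiblast genes with a named probe, 5 were higher and none lower, and 4 were higher with dim signals raised. The list's median was 1.57, or 1.5 with raised signals. Fgf5, the growth factor that marks the epiblast after implantation, gave 42.3 units in ES, 5057 in EHeD7 and 7919 in EHeD14, while in EHe it was not well above background. Pou3f1 (Oct6), a POU factor of the primed state, rose 9.21-fold, from 818.7 to 7537 units. Dnmt3b, the de novo DNA methyltransferase that peaks in the epiblast, rose 4.88-fold, from 5214 to 25460 units. Its relative Dnmt3a differed, with 5463 units in ES and 2191 in EHeD14, 2.49-fold lower and inside 3-fold. Sall2 rose 6.83-fold. Nodal, the TGF beta ligand that maintains the primed epiblast, stood at 14390 units in ES and 42650 in EHeD14, just inside the threshold at 2.96-fold. Otx2, which directs the exit from the naive state, stood at 4979 units in ES, 687.2 in EHe and 12080 in EHeD14. From ES to EHeD14 this was 2.43-fold, although EHe lay well below both. Cdh2 (N-cadherin), not well above background in ES, was at least 2.83-fold higher. Zic2, Zic5 and Lef1 lay within 3-fold.

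Genes of the primitive streak and nascent mesoderm were higher in 6 of 16 with a probe and lower in 1, and with dim signals raised 5 were higher and none lower. The list's median was 0.89, or 0.65 with raised signals and 0.23 with normexp. Wnt3, the signal that initiates the streak, was not well above background in ES or EHe and reached 3871 units in EHeD7 and 2982 in EHeD14, at least 127-fold above ES. T (brachyury), the T-box factor of the streak, gave 46.8 units in ES, 3074 in EHeD7 and 3275 in EHeD14. Eomes, the T-box factor required for mesoderm and definitive endoderm, rose 24.8-fold, from 60.9 to 1511 units. All 3 were thus already near their day 14 level at day 7. Fgf8, which drives the migration of cells out of the streak, rose 20.6-fold, with 840.2 units at day 7 and 1788 at day 14. Gsc (goosecoid), a homeobox factor of the anterior streak, rose 6.44-fold. Cer1, a secreted Nodal inhibitor, was well above background in EHeD14 alone and at least 1.99-fold above ES.

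The other genes of the list did not pass 3-fold upward. Mesp1, which specifies early cardiovascular mesoderm, stood at 43.0 units in ES and 39.1 in EHeD14, and Msgn1 and Tbx6, of presomitic mesoderm, also lay within 3-fold. Mixl1 and Evx1 were not well above background on either array. Wnt3a, counted as lower on the measured signals, was not well above background in EHeD14 and at least 2.10-fold below ES.

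Mesoderm regulators were split. Of 22 with a probe, 6 were higher and 4 lower, 5 and 3 with dim signals raised, and 6 were not well above background on either array. The list's median was -0.25, close to that of all genes. The bHLH factor Twist1, of mesenchyme and neural crest, was not well above background in ES, stood at 89.9 units in EHe and reached 299.2 in EHeD14, at least 12.8-fold above ES. Foxc1 was at least 7.44-fold higher and Twist2 at least 4.10-fold, though neither passed with normexp. Hand1, of extraembryonic and lateral mesoderm, rose 4.12-fold, from 299.2 to 1233 units. Lower were Snai2 (Slug), 8.71-fold, Bmp4, 6.29-fold, and Tcf15, a bHLH factor of somites that is also expressed in ES cells, 5.88-fold. Foxf1 was counted as lower on its measured signal, but from 33.0 units in ES the bound was 1.55-fold. The receptor Kdr (Flk1), of hemangioblasts, and Isl1, of second heart field progenitors, were among the dim genes, and Pdgfra, of paraxial mesoderm, lay within 3-fold.

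Genes of smooth muscle and the contractile cytoskeleton were higher in 6 of 12 and lower in none, with a median of 1.37. Cnn1 (calponin), which binds actin in smooth muscle, gave 172.5 units in ES, 104.5 in EHe, 2942 in EHeD7 and 3984 in EHeD14, 23.1-fold above ES. Tagln (SM22) rose 6.38-fold, from 1583 to 10110 units, and Cald1 (caldesmon) 7.36-fold. The tropomyosins Tpm1 and Tpm2 rose 4.83- and 5.05-fold and the myosin light chain Myl9 4.21-fold. The other 6 members lay within 3-fold on the probe used, among them Actg2 and Lmod1, at log2 differences of -0.24 and 0.23. Acta2, smooth muscle actin, stood at 14040 units in ES and 13000 in EHeD14 on its brightest probe, while another of its probes was 2.33 higher on the log2 scale. Myh11, the myosin heavy chain of mature smooth muscle, stood at 30.2 and 48.3 units. Among 14 genes of heart and skeletal muscle, 4 were lower, 1 was higher and 3 were not well above background on either array. Their median was -0.44, or -0.27 with dim signals raised, against -0.14 for all genes so treated. The 1 that rose was Myl7, the atrial myosin light chain, 3.21-fold. Myh7 fell 3.43-fold, Tnnt2 3.59-fold and Ttn at least 6.81-fold. With normexp, Myl7, Myh7, Tnnt2 and Ttn all came inside 3-fold, as did Ttn with the mean of its 8 probes, of which only the 1 used was well above background. The 3 dim genes were Myod1, Myog and Myf5, the regulators of skeletal muscle.

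Of 21 genes of fibroblasts, mesenchyme and matrix, 10 were higher and 2 lower, 9 and 2 with dim signals raised, and the median was 1.12, or 0.51 with normexp. Col1a1, a chain of type I collagen, rose 8.50-fold, from 126.9 to 1079 units, though not past 3-fold with the mean of its probes, and Mmp2, a gelatinase, 8.25-fold. Ccn2 (CTGF), a target of TGF beta and Yap signaling, rose 10.8-fold, from 2342 to 25190 units, and Ccn1 3.74-fold. Col6a1 was at least 13.1-fold higher, Thy1 rose 5.35-fold and S100a6 5.20-fold. The matrix proteoglycans Lum and Dcn were not well above background on either array, and Fn1 (fibronectin) fell 7.60-fold. The 2 Zeb genes, repressors of E-cadherin that drive epithelial to mesenchymal transition, changed in opposite directions. Zeb1 gave 1720 units in ES, 1716 in EHe, 28.4 in EHeD7 and 35.8 in EHeD14, 48.1-fold below ES. Zeb2 was not well above background in ES, gave 1099 units in EHe and 1542 in EHeD14, at least 65.8-fold above ES. The Zeb2 difference was therefore present in the hybrid before differentiation, whereas that of Zeb1 was not.

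Among 15 blood and endothelium genes, 1 was higher and 2 lower, and 7 were not well above background on either array on the probe used, although another probe of Hbb-bh1 was so in ES. Flt1, a VEGF receptor, was not well above background in ES or EHe and stood at 655.1 units in EHeD14, at least 27.6-fold above ES. Gata2 fell 4.04-fold and Tek (Tie2) 3.52-fold, and both came inside 3-fold with normexp. Ptprc, Cdh5, Emcn and the embryonic globin Hba-x were among the dim genes.

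Definitive endoderm and foregut genes were higher in 2 of 14, and 5 were not well above background on either array. The list's median was -0.47, against -0.21 for all genes, and with dim signals raised -0.16 against -0.14. Cldn6, a tight junction claudin of early epithelia, rose from 496.8 to 9393 units, 18.9-fold, with EHe at 102.8. Foxa3 was at least 5.71-fold higher, but inside 3-fold with normexp. Sox17, which specifies endoderm, stood at 417.3 units in ES and 300.7 in EHeD14, and Foxa2 at 139.1 and 185.5. The dim genes were Foxa1, Prox1, Onecut1, Shh and Pdx1. In the list for extraembryonic endoderm 2 of 16 genes rose and 2 fell. The 2 that fell were transcription factors, with Gata6 at 3024 units in ES, 233.8 in EHe and 850.2 in EHeD14, 3.56-fold below ES on its brightest probe and -1.36 on the log2 scale on its other, and Sox7 3.15-fold lower. The 2 that rose encode basement membrane proteins, Lamb1 3.07-fold and Col4a1 3.18-fold. Sox7 came inside 3-fold with normexp and with the percentile over probes measured on both arrays, and Lamb1 with median centring. Its median was 0.31.

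Of 15 hepatocyte genes, 11 of which were well above background in Hepa1-6, none passed 3-fold upward. Alb (albumin) was not well above background in ES, EHe, EHeD7 or EHeD14 and stood at 67210 units in Hepa1-6. Afp (alpha-fetoprotein), with 110100 units in Hepa1-6, stood at 61.9 in ES and was not well above background in EHeD14. Ahsg (fetuin), not well above background in Hepa1-6, fell 17.9-fold from ES. Of the list, 6 genes were not well above background on either array. The summed signal of its members was 66610 units in ES and 93460 in EHeD14, of which Apoe, made by many cell types, gave 55600 and 79910.

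In the trophoblast list, of 15 genes 4 were higher and 1 lower, and 3 were not well above background on either array. The keratin pair of simple epithelia rose together. Krt8 gave 3143 units in ES, 641.2 in EHe, 32530 in EHeD7 and 49810 in EHeD14, 15.8-fold above ES. Krt18 gave 2584, 517.0, 36080 and 48950 units on the same arrays, 18.9-fold above ES. Hepa1-6 stood above these arrays for both, at 181100 and 205900 units. Krt7 rose 6.91-fold. Krt19, a simple keratin outside the list, was among the 15 largest rises of all genes, at 83.4-fold. Gata3, a trophectoderm factor that other epithelia and mesoderm also use, rose 9.98-fold, from 72.1 to 719.3 units. Tfap2c, which acts in trophoblast and germ cells and is also active in naive cells, fell 57.7-fold, from 16220 to 281.1 units. Cdx2, the homeobox regulator of trophectoderm, stood at 91.3 and 34.6 units, and Elf5, Gcm1 and Tpbpa were dim on both arrays. The list's median of 0.18 was -0.15 under the normexp background correction.

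Neural genes were also divided. Of 23, 7 were higher and 4 lower, 6 and 3 with dim signals raised, and with normexp only Hes5, Zic1 and Nes of the higher and En2 of the lower still passed. Another 6 were not well above background on either array. The median of the list was -0.45, or -0.14 with dim signals raised, where that of all genes was also -0.14. Hes5, a Notch target of neural progenitors, gave 56.6 units in ES, 4306 in EHe, 4523 in EHeD7 and 4384 in EHeD14. Its 77.5-fold difference between EHeD14 and ES was thus found in EHe as well. Zic1 was not well above background in ES and stood at 85.9 units in EHe and 573.7 in EHeD14, at least 24.5-fold above ES. Nes (nestin), an intermediate filament of progenitors, rose 7.18-fold, from 1757 to 12630 units, and Sox11 4.21-fold on the probe used and by at least 3.73 to 4.86 on the log2 scale on its other 4. Map2 was at least 6.44-fold higher and Fabp7 at least 3.84-fold, and Neurod1 was counted as higher with a bound of 1.72-fold. The other members did not pass 3-fold upward. Pax6 stood at 41.5 units in ES and 859.9 in EHe and was not well above background in EHeD14, and Sox1 stood at 134.3 and 61.6 units in ES and EHeD14. En2, a midbrain homeobox factor, fell 10.3-fold, Tubb3, the tubulin of neurons, 3.07-fold and the Notch ligand Dll1 at least 3.70-fold. Neurog2, Olig2, Six3, En1, Nkx2-2 and Dcx were dim on both arrays.

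In the neural crest list 1 of 12 genes rose, Sox10 by 5.81-fold, and 2 fell, Ngfr by 9.38-fold on its brightest probe and Tfap2b by 3.20-fold, while Pax3 and Sox9 were dim on both arrays. Sox10 came inside 3-fold with the mean of its probes, and Tfap2b with that mean, with normexp and with the percentile over probes measured on both arrays. Among 9 surface ectoderm genes, Perp, a desmosome component, rose 5.17-fold, from 3631 to 18780 units. Krt17 fell 4.55-fold and Krt5 3.23-fold, the latter inside 3-fold with normexp, and Trp63, the p63 regulator of stratified epithelium, was not well above background on either array. Of 36 Hox genes, which pattern the axis after gastrulation, 22 were not well above background on either array on the probe used, although another probe of Hoxa4 was so in EHeD14. Hoxd1 was at least 3.01-fold higher, and Hoxd4 was counted as lower with a bound of 1.65-fold, and neither passed with normexp.

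**Figure D2:**
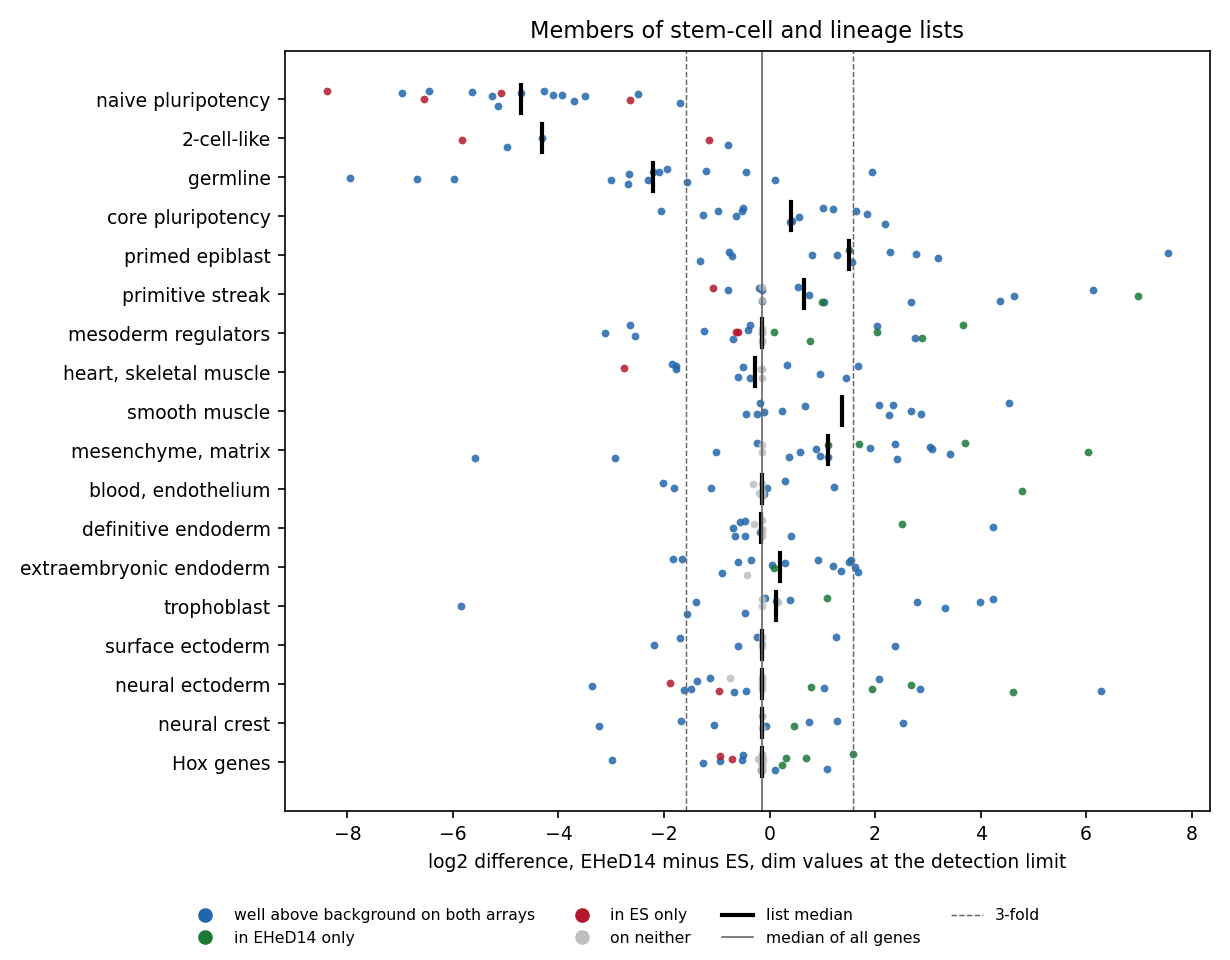
Log2 difference of EHeD14 minus ES for each member of the stem-cell and lineage lists, with dim signals raised to the detection limit; colours show on which array a gene was well above background, black bars are list medians and the grey line is the median of all genes. The naive, 2-cell-like and germline lists have medians of -4.71, -4.31 and -2.21. A gene dim on both arrays lies near the ratio of the detection limits, -0.14, and so do the bars of lists with many such genes.

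In the Nodal, activin and BMP axis 5 of 16 genes rose, 3 fell and 6 lay within 3-fold, and with dim signals raised 4 rose and 3 fell. Fst (follistatin), which binds and blocks activin, rose from 35.4 to 3230 units, 91.3-fold. Inhbb, which encodes the activin B subunit, fell from 24150 to 70.4 units, 343-fold, on its brightest probe and by 1.59 on the log2 scale on its other. The Nodal inhibitors and targets Lefty1 and Lefty2 fell 3.68- and 3.34-fold, whereas Nodal itself stood above ES, inside 3-fold. Tgfb2 was at least 8.54-fold higher, Tgfb1 rose 3.24-fold and Id2, a target of BMP, 5.19-fold. Its relatives Id1 and Id3 lay within 3-fold, at log2 differences of -0.80 and 1.33. In the list of FGF and Wnt genes 4 of 20 rose, 2 fell and 13 lay within 3-fold. Fgf15 rose 7.71-fold, while Fgf17 fell from 510.1 units by at least 24.0-fold. Wnt8a was at least 11.2-fold higher and Axin2, a direct target of Wnt signaling, at least 3.92-fold. Tgfb1 and Axin2 came inside 3-fold with normexp. Wnt5b rose 4.42-fold and Sfrp1, a secreted Wnt antagonist, fell 3.65-fold. Dusp6, Etv4 and Etv5, targets of FGF signaling through ERK, lay within 3-fold.

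The 15 largest rises among all named genes, ranked with dim signals raised, included secreted and surface proteins. Npy, the neuropeptide Y precursor, led them. It was not well above background in ES, stood at 142.0 units in EHe, 24970 in EHeD7 and 29380 in EHeD14, and was at least 1255-fold above ES. Fndc3c1 followed, at 273-fold. Epha1, an ephrin receptor of epithelia, rose from 289.2 to 43820 units, 152-fold, and the chemokine Cxcl12 from 27.6 to 3627 units, 131-fold. Slc39a8, a zinc transporter, was at least 166-fold higher, and Enpp2 (autotaxin), which makes lysophosphatidic acid, at least 114-fold. Has2, the hyaluronan synthase of embryonic matrix, was at least 88.6-fold higher. Nrcam, a neural adhesion molecule, rose 106-fold. Cacna1g, a T-type calcium channel, was at least 128-fold higher and stood at 1387 units in EHe, and Cited1, a transcriptional coactivator, rose 80.8-fold with EHe at 9308 units. Both were thus above their ES level before differentiation. Fgf5, Wnt3, Fst, Krt19 and Hprt complete the 15. Hprt stood at 12480 units in EHe, also above ES, and whether the E14 line used lacks this gene was not tested.

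Of the 15 largest falls, Nr5a2 and Esrrb were of the naive list and Stra8 of the germline list. Rpl39l, a ribosomal protein variant of testis and ES cells, fell from 20430 to 48.9 units, 417-fold. Aurkc, the Aurora kinase of meiosis, fell 253-fold and Khdc3, a gene of the oocyte's subcortical complex, 217-fold. Khdc3 had fallen in EHe already, from 49520 units in ES to 3154, and Aurkc from 13090 to 1543. Fkbp6, which acts in meiosis and the piRNA pathway, was at least 126-fold lower. Jam2, a junctional adhesion molecule, fell 144-fold and Aqp3, a water and glycerol channel, 132-fold. Phf11a was at least 226-fold lower, Ak7 at least 210-fold, Gm9 at least 179-fold, Myo1f at least 127-fold and Dusp27 at least 115-fold. Inhbb completes the group.

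The promoters of a naive gene that fell and of epithelial genes that rose are shown for the letters they hold that factors named above can bind. The sequences are the 250 bases upstream of the start in RefSeq, build GRCm38.p6, written along the gene's own strand, and capitals mark 2 motifs searched on both strands. The first is ATTTGCAT, the octamer bound by POU factors such as Oct4, found in 526 of all 32851 windows of this length (1.6%). The second is CACCTG, or its reverse complement, the E-box read by Zeb and Snail repressors, found in 5657 windows (17.2%). The Zfp42 window, chr8:43307010-43307259 on the minus strand, holds 1 octamer, 186 bases before the start, and 1 E-box at 110 bases. Those of Krt8, chr15:102004343-102004592 on the minus strand, and Krt18, chr15:102027966-102028215 on the plus strand, hold 1 E-box each, at 111 and 214 bases. Epcam, chr17:87635729-87635978 on the plus strand, holds 2, at 187 and 19 bases. Among the 13 windows found for 11 naive genes 1 holds the octamer and 4 the E-box, and among the 15 windows of 12 trophoblast genes 2 hold the octamer and 6 the E-box. Of the 8 windows of 7 core genes none holds the octamer and 1, that of Epcam, the E-box. A match describes these letters and says nothing about binding.
Zfp42: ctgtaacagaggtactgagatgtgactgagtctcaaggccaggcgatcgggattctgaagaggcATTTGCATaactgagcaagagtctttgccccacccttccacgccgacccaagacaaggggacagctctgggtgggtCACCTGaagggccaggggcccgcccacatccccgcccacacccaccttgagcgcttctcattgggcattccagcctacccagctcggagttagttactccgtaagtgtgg
Krt8: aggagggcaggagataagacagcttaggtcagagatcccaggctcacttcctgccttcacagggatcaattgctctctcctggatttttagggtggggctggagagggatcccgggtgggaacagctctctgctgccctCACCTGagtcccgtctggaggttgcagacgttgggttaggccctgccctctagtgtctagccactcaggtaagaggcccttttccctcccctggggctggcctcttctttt
Krt18: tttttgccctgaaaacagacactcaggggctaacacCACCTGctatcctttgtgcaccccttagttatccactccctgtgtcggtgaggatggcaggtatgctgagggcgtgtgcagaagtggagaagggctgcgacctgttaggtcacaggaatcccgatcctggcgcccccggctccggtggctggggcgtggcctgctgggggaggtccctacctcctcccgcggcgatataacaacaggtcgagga
Epcam: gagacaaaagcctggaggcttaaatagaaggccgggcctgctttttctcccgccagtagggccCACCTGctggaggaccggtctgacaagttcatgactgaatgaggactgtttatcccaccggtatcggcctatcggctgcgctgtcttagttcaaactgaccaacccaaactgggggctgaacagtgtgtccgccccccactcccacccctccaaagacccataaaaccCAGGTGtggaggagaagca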

How the data were processed

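Total RNA of 5 conditions was hybridized to Agilent mouse arrays, 1 array each. The authors deposited the scanner tables of Agilent Feature Extraction 10.7.3.1, and the values used were the processed signal, an intensity that this software had corrected for background and detrended, beside the median signal and local background, also intensities. The flags for control, outlier and well-above-background spots came from the same deposited tables as scores of 0 or 1. In the deposited series table the processed signals were identical to these, with a largest relative difference of 0, and no value had been normalized between arrays.

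Groups came from the sample labels. Control spots and outlier spots (120 in ES and 74 in EHeD14) were left out, no spot was saturated, and each array's 75th percentile was subtracted from its log2 signals. Repeated spots were averaged to 1 value for each probe. A probe entered the comparison if it was well above background on either array, and counts were taken at a 3-fold threshold, with no test. Of 41174 probes, 26888 were named through RefSeq accessions, 145 through the study's supplementary probe list, and 14141 stayed unnamed. A gene was represented by its probe with the highest mean signal over the 5 arrays, and 15 genes had probes over 3-fold in opposite directions. In 2378 of the genes past 3-fold each detected probe changed the same way.

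The genes named were members of 29 lists, the 15 largest rises and falls, and the genes the study names for pluripotency and tumor panels. Some members counted in the lists are not reported here by name. Members and lists were chosen with earlier results of these data known, and the motif letters after the values had been seen. Alternatives were normexp background correction (offset 50, on the median signal), median centring, the percentile over probes measured on both arrays, quantile normalization, dim values at the limit, other filters, the series table, the mean of a gene's probes and a 2-fold threshold. The analysis ran in R 4.3.3 with limma 3.58.1 and in Python 3.11.15 with pandas 2.3.3, numpy 2.4.6 and matplotlib 3.10.9.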

Additional observations from a re-analysis of the deposited data

How the results depend on the processing

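Normexp background correction, with an offset and on the median in place of the processed signal, gave 970 probes and 689 genes higher and 975 probes and 646 genes lower. Requiring both arrays to be well above background, which removes genes seen on 1 array by construction, gave 1393 probes and 899 genes higher and 1269 probes lower, and the 2-fold threshold gave 4463 and 4307 probes and 2297 and 2450 genes higher and lower. The other 27 of 38 counts, 4 of them from the series table and so identical, lay within 1.5 times of their main value. The naive median was -4.32 with the mean of a gene's probes, -3.996 with normexp and -4.27 for genes measured on both arrays. The core median was 0.59 after quantile normalization. The primed median was 1.30 with normexp, 1.73 after quantile normalization and 1.42 on both arrays, and the streak median 0.23, 0.65 and 0.76 with normexp, with dim signals raised and on both arrays. The trophoblast median changed sign to -0.15 with normexp. Of 144 list medians under the alternatives that do not repeat or shift all values alike, 75 stayed within the spot SD of 0.11, 68 moved further and 1 changed sign. Of the 159 named genes past 3-fold, 157 still passed in the same direction with median centring (Cdkn1a and Lamb1 did not), 157 after quantile normalization (Tdh and Pax6 did not), 155 with the percentile over probes measured on both arrays (Pax6, Sox7, Tfap2b and Tubb3 did not), 151 with the mean of a gene's probes (Col1a1, Gata6, Itgam, Pax6, Sox10, Tdrd1, Tfap2b and Ttn did not), 150 with dim signals raised (Afp, Cdh2, Cer1, Foxf1, Hoxd4, Itgam, Neurod1, Pax6 and Wnt3a did not) and 125 with normexp. The 34 that normexp left inside 3-fold were Afp, Axin2, B2m, Cdh2, Cdkn1a, Cer1, Dll1, Eif2s3y, Fabp7, Foxa3, Foxc1, Foxd3, Foxf1, Gata2, Hoxd1, Hoxd4, Itgam, Jun, Krt5, Map2, Myh7, Myl7, Neurod1, Pax6, Sox11, Sox7, Tek, Tfap2b, Tgfb1, Tnnt2, Ttn, Tubb3, Twist2 and Wnt3a, and its choices of signal, background model and offset were not separated. Values from the deposited series table were identical. For changes without a stated construction, the cause was not tested. No paired analysis was possible because there was 1 array for ES and 1 for EHeD14. Signals near background limit all folds against a dim array to bounds, and 14141 unnamed probes stand outside the statements on genes. Variation between cultures, clones or RNA preparations was not measured.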

Other observations

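Further gene groups differed between EHeD14 and ES. Of 11 genes of antigen presentation and the immunoproteasome, 9 were over 3-fold higher in EHeD14 and none lower, with a median of 2.04 against -0.21 for all genes. Psmb8, a catalytic subunit of the immunoproteasome, gave 215.0 units in ES, 3627 in EHeD7 and 11740 in EHeD14, 54.6-fold above ES, and was not well above background in EHe. Tap2 and Tap1, which carry peptides into the endoplasmic reticulum, rose 12.3- and 5.79-fold, and H2-K1, a class I heavy chain, 4.18-fold. Psmb10 and the transactivator Nlrc5 lay within 3-fold. Of 12 imprinted genes 6 rose and 1 fell, with a median of 1.34, where 9.4% of all genes measured rose and 8.24% fell. Plagl1 rose 12.6-fold, from 372.5 to 4707 units, on its brightest probe and by 1.52 on the log2 scale, inside 3-fold, on its other, and Meg3, a maternally expressed noncoding RNA, 4.18-fold. Mest stood at 5186 units in ES, 18790 in EHe and 24950 in EHeD14, so that EHe was closer to EHeD14 than to ES. So it was for Meg3, at 13360, 44240 and 55820 units on these arrays, and for Peg3, at 206.5, 617.1 and 710.3. Grb10 fell 3.78-fold. Hprt, the purine salvage enzyme on the X chromosome, gave 101.0 units in ES, against 18060 in EHeD14. EHe stood at 12480 units, EHeD7 at 17420 and Hepa1-6 at 13820, so that ES stood apart from the other arrays, and a defect of the gene in the ES line was not tested.

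Each of 12 genes of mitosis and replication and each of 13 of cholesterol synthesis and uptake lay within 3-fold on the probe used, with medians of -0.24 and -0.29. Another probe of Fdft1, of the cholesterol list, was dim in EHeD14 and at least 2.79 lower on the log2 scale. Mki67 stood at 12230 units in ES and 26470 in EHeD14. Among 8 cell cycle inhibitors and cyclins, Ccnd2 rose 4.56-fold and Cdkn1a (p21) 3.02-fold, which came inside 3-fold with normexp and with median centring, while Ccnd3 fell 3.93-fold. Of 7 macrophage genes, Cd14 rose 8.82-fold, Itgam was counted as lower with a bound of 2.08-fold, and Adgre1, Lyz2 and Tyrobp were not well above background on either array. Among 4 Y-linked genes and Xist, 3 Y-linked genes were well above background in ES and none in EHeD14, and the bound for Eif2s3y was 3.24-fold. Eif2s3y and Ddx3y stood at 609.4 and 180.3 units in EHe, above ES at 69.01 and 25.65, and were not well above background in EHeD7. Of 10 housekeeping genes 3 were higher, Hprt, Pgk1 by 3.27-fold and B2m by 3.26-fold, the last inside 3-fold with normexp, and the list's median of 0.03 became -0.02 with median centring. Of the genes the study examined for tumor behaviour, Egfr rose 9.94-fold, Fas 7.44-fold and Jun 5.90-fold, the last inside 3-fold with normexp. Bcl2 was 2.85-fold higher on its brightest probe and at least 3.69 higher on the log2 scale on its other, which was dim in ES. Tgfa was 2.75-fold and Fos 2.31-fold higher, and Cdkn2a 2.67-fold lower, each inside the threshold. The brightest Bmi1 probe differed by -0.82 on the log2 scale and its other by 1.76, so no direction is given. Junb lay within 3-fold, and Ttr was not well above background on any array.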
